A study of Mus musculus with 6 samples.

Results

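Ank3, Nbea, Erc2, Cntnap4, Lingo2, Dock3, Ano3, Frmd5, Samd12 and Nexmif are 10 genes best known from neurons, and all but 1 of them are very long. They were taken by symbol from the gene list shared by the 6 count matrices, 10 of 22623 genes, and each symbol was found. They were selected on their measured levels in the nuclei of an implanted tumor, so those levels are given here as a description with no test. The tests below concern cycling against resting tumor nuclei and the study's treatment groups.

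RNA of single nuclei was counted in frozen subcutaneous tumors grown from TC1 cells, a purchased mouse lung tumor line. All host mice carried a floxed MCT2 gene (Slc16a7, a monocarboxylate transporter; MCT2 loxP/loxP) and a Cre transgene on a C57BL/6 background. At 8 weeks of age they received a daily injection for 5 days, of tamoxifen in the knockout (KO) group and of vehicle in the control (CO) group. TC1 cells followed 2 days later, and tumors were taken on day 24, with 3 libraries per group. The TC1 cells themselves did not come from the floxed mice, so the deletion concerns host cells. The study describes young male mice and a systemic, inducible deletion, and the promoter of the Cre is not given in the sources used here. Neither is the number of tumors behind a library, so p-values concern these libraries. The tests take the spread between libraries partly from all genes together, so a p-value does not rest on a gene's own spread alone.

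Neurons use an unusual set of very long genes, many of which encode adhesion molecules, scaffolds and vesicle-release proteins that place channels and receptors at set points of the membrane. Because such genes are mostly intron, nuclei, which hold unspliced RNA, can carry many of their transcripts. In cells other than neurons, the RE1-silencing factor REST and its corepressors keep many neuronal genes low.

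The 10 genes fall into several roles, and positions are those of GENCODE vM21 on GRCm38. Ank3 (ankyrin-G, chr10:69398773-70027438, plus strand) encodes the scaffold that organizes the axon initial segment, and it also sits at the lateral membrane of epithelial cells. At synapses, Erc2 (chr14:27622428-28478537, plus strand) is a scaffold of the presynaptic active zone. Nbea (neurobeachin, chr3:55625195-56183701, minus strand) is a BEACH-domain protein that takes part in receptor traffic. Cntnap4 (chr8:112570043-112882717, plus strand) and Lingo2 (chr4:35706647-36951747, minus strand) encode membrane proteins, the former of the contactin-associated group and the latter with leucine-rich repeats. Ano3 (chr2:110655201-110950923, minus strand) belongs to the anoctamin family and is linked to dystonia. Dock3 (chr9:106892825-107231909, minus strand) activates Rac, a small GTPase that remodels actin. Frmd5 (chr2:121545529-121807087, minus strand) carries a FERM domain, the module that joins membrane proteins to the cytoskeleton. Samd12 (chr15:53453810-53902537, minus strand) is known for intronic repeat expansions in a familial epilepsy, and Nexmif (chrX:104077434-104201185, minus strand) for X-linked intellectual disability.

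Their annotated spans ran from 124 kb in Nexmif to 1245 kb in Lingo2, with a median of 394 kb against 16.6 kb over all 22513 matched genes. A span of 200 kb or more was held by 9 of the 10, and by 4.43% of all matched genes. Merged exons covered between 0.666% (Lingo2) and 9.32% (Nexmif) of the span, so each gene is largely intron. No other counted gene overlapped a member on the same strand. On the opposite strand, Muc15 overlaps the span of Ano3, Mab21l1 that of Nbea and Gm7489 that of Samd12.

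The stretches upstream of the start site are shown for Frmd5, Dock3 and Erc2. Frmd5 and Dock3 are the 2 members called in the test of cycling against resting tumor nuclei below. Erc2 alone held a searched motif. Sequences are from RefSeq on GRCm38.p6, where 7 of the members matched 9 windows (not Ank3, Cntnap4 or Samd12). Each run is the 250 bases before the start on the gene's own strand, at chr2:121807058-121807307 (minus), chr9:107231910-107232159 (minus) and chr14:27622157-27622406 (plus). Capitals mark CG dinucleotides in the first and second, and the AP-1 match in the third.
Frmd5: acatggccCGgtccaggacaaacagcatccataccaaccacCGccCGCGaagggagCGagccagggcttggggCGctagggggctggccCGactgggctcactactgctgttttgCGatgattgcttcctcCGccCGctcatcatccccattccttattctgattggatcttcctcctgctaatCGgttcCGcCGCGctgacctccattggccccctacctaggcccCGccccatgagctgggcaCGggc
Dock3: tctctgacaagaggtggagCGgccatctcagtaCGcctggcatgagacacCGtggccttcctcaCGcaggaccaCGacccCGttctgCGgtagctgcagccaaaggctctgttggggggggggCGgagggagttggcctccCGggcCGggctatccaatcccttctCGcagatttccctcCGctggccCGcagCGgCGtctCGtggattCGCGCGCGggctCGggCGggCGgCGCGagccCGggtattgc
Erc2: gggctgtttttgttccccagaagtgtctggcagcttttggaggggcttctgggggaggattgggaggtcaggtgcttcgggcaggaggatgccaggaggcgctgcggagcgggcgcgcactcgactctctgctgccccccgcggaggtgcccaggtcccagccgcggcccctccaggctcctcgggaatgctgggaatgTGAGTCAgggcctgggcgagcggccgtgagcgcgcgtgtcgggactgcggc
The stretch held 16 CG dinucleotides in Frmd5, 26 in Dock3 and 20 in Erc2, against a median of 6.0 over 32851 windows. The members did not share this feature, since a Lingo2 window held 0. On both strands of the full windows, which run 250 bases before to 50 after the start, the AP-1 motif TGANTCA was found in Erc2 and in 7.81% of all windows. None of the 9 windows held an E2F motif (TTTCCCGC, in 1.07% of all windows, or TTTGGCGC, in 0.514%), a CRE (TGACGTCA, 1.79%) or the left or right part of RE1 (TTCAGCACC, 0.371%, and GGACAGC, 6.56%). These letters say nothing about which factors act in the tumor.

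After filtering, 17514 nuclei remained, from libraries of 13252572 to 22057084 unique molecular identifiers (UMIs, the counted molecules). Nuclei were sorted by their UMIs of 12 tumor and 65 host markers. A nucleus with at least 3 marker UMIs was called tumor where at least 80% of them were of tumor markers, host where at most 20% were, and mixed in between. This gave 7506 tumor nuclei (619 to 2066 per library, median depth 5679.5 UMIs), 5319 host nuclei, of which 4664 were macrophage nuclei (median 1144 UMIs), and 4592 mixed nuclei. Of the 12 tumor markers, 6 were at least 10-fold higher in tumor than in macrophage nuclei and 5 were under 3-fold, and the host markers Pdgfra and Col3a1 were also present in tumor nuclei, at 492 to 989 and 215 to 712 CPM (UMIs of a gene per 1000000 UMIs). The study states that lineage tracing or copy-number analysis would be needed to tell TC1 cells from host mesenchymal or stromal cells. It lists Frmd5 among the top markers of a fibroblast cluster and Dock3 among those of a mesenchymal stromal cluster. Tumor nuclei here are thus defined by marker counts alone. The lung markers Nkx2-1 and Sftpc had 0 UMIs in all tumor nuclei and the epithelial marker Epcam had 5, so defining markers of lung epithelium were at or near 0 in tissue labelled as lung. In macrophage nuclei Slc16a7, the targeted gene, measured 101, 95.3 and 175 CPM under the CO label and 120, 131 and 182 CPM under the KO label, so its counts were no lower under the KO label. Where the deleted part lies is not given in the sources used here, and 3′ counts outside it would check nothing. Across the libraries, 61 barcode sequences occurred more than once.

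In the tumor nuclei, every one of the 10 genes was present in all 6 libraries, and each was far higher than in macrophage nuclei. Levels are given as means over 6 libraries ± SD. Ank3 stood at 2251 ± 604 CPM in tumor nuclei, from 1607 over a median of 2231 to 2895, and at 97.8 CPM in macrophage nuclei, 23.0-fold lower. Nbea reached 1853 ± 656 CPM against 119, which is 15.6-fold. In both genes the lowest tumor library lay far above the highest macrophage library.

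Ano3 measured 523 ± 129 CPM in tumor and 26.3 CPM in macrophage nuclei (19.9-fold). Lingo2 came to 281 ± 109 against 22.1 CPM (12.7-fold), and Dock3 to 233 ± 56.4 against 17.6 CPM (13.3-fold). Frmd5 measured 141 ± 91.3 against 14.3 CPM (9.93-fold), Nexmif 133 ± 22.7 against 9.41 CPM (14.2-fold) and Erc2 114 ± 36.8 against 5.93 CPM (19.3-fold). Samd12 (70.4 ± 13.3 against 5.09 CPM, 13.8-fold) and Cntnap4 (27.2 ± 9.64 against 1.57 CPM, 17.3-fold) rested on the fewest UMIs. Frmd5 varied most for its level, from 69.8 CPM in CO replicate 2 to 291 CPM in CO replicate 3, and Nexmif least, from 112 to 173 CPM.

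Per 100 kb of span, the scale on which the levels of the members are put in order, Ank3 (358 CPM per 100 kb) and Nbea (332) were highest, followed by Ano3 (177) and Nexmif (108). Dock3 (68.9) and Frmd5 (54.1) came next, then Lingo2 (22.5), Samd12 (15.7), Erc2 (13.4) and Cntnap4 (8.68). Neighbours in this order overlapped in their ranges over the libraries.

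**Figure D1:**
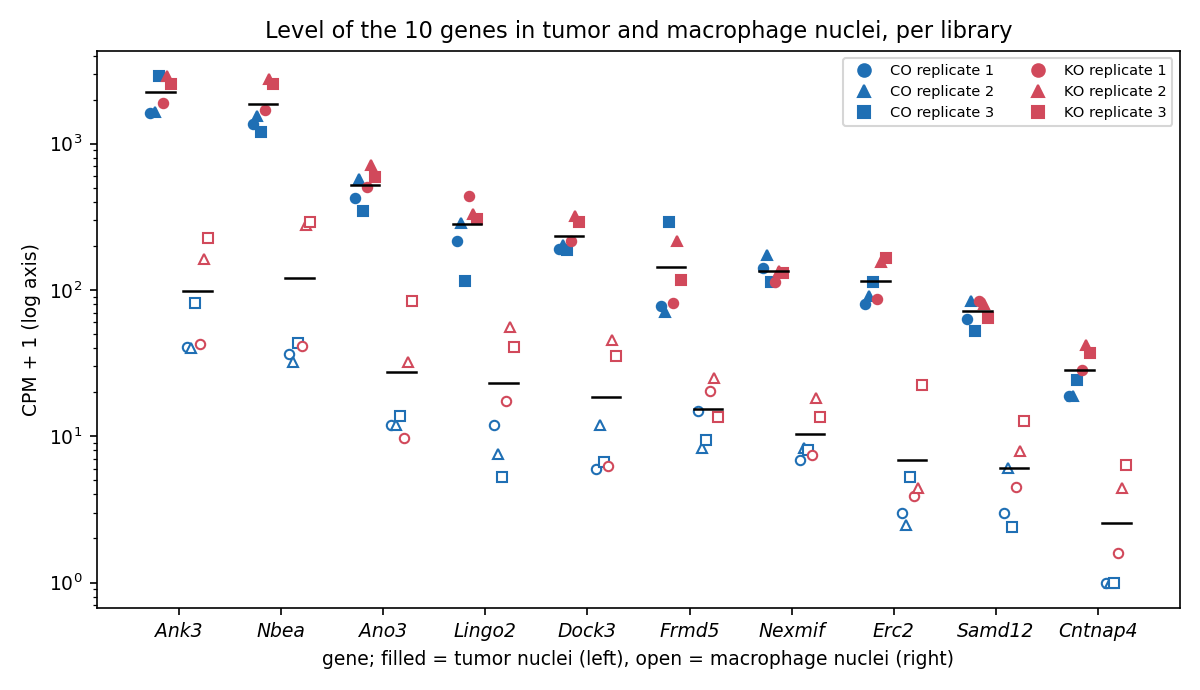
Level of each gene in tumor nuclei (filled symbols) and macrophage nuclei (open symbols) of each library, as CPM + 1 on a log axis, with the mean over 6 libraries as a bar. The open symbols of KO replicates 2 and 3 lie highest for 8 of the 10 genes, and the 3 CO libraries have 0 Cntnap4 UMIs in macrophage nuclei.

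A level at least 5-fold that of macrophage nuclei in all 6 libraries was found for 3.41% of the 9450 genes with 10 CPM or more in tumor nuclei. Of the 10 members, which were picked for this, 9 met it and Frmd5 did not, being 79.8 against 19.3 CPM in KO replicate 1. The count includes Cntnap4, which had 8 macrophage UMIs in all and 0 in each CO library, where 3 counts per library as a floor make it at least 6.00-, 8.12- and 5.46-fold higher in tumor nuclei. The median of the 10 folds was 14.9, against 1.09 over the 9450 genes. Taken library by library, the CO values were 38.2, 43.0 and 30.8, and those of KO replicates 1 to 3 were 35.0, 10.8 and 8.10.

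The contrast held in the share of single nuclei. Nuclei were thinned to 1000 UMIs each, which left out 347 tumor and 1697 macrophage nuclei below that depth. A UMI of Ank3 was then found in 80.2% ± 5.92 of tumor nuclei (SD over 6 libraries) and in 8.71% of macrophage nuclei. Nbea was seen in 68.1% ± 8.14 against 10.5%, and Ano3 in 33.5% ± 7.41 against 2.43%. For the other members the tumor share ran from 2.44% (Cntnap4) to 17.7% (Dock3) and the macrophage share from 0.050% (Cntnap4) to 1.96% (Lingo2). Without thinning, the shares were 94.1% for Ank3, 90.8% for Nbea and 15.6% for Cntnap4 in tumor nuclei, and 12.8%, 15.5% and 0.258% in macrophage nuclei. At 1000 UMIs, between 94.1% (CO replicate 1) and 99.0% (KO replicate 2) of tumor nuclei held a UMI of at least 1 of the 10 genes.

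The macrophage values differed between libraries and moved with tumor marker RNA. A UMI of at least 1 member was seen in 11.02%, 11.4% and 17.4% of macrophage nuclei in the CO libraries and in 11.7% in KO replicate 1, but in 45.4% in KO replicate 2 and 47.9% in KO replicate 3. Summed over the 10 genes, the macrophage level was 2.56% to 3.12% of the tumor level in the first 4 of these libraries and 8.17% and 10.7% in the last 2. For the tumor markers Mecom, Slit2 and Hmga2 summed, the corresponding figures were 1.86% to 2.97%, then 6.44% and 7.70%. The part of free tumor RNA in the macrophage values was not tested.

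Other host nuclei were few. Summed over all host classes but macrophages, Ank3 stood at 316 CPM (248 UMIs, exact Poisson 95% interval 278 to 358, counting error only). Per library it ran from 19.0 to 707 CPM. Nbea stood at 242 CPM (190 UMIs) and Frmd5 at 180 CPM (141 UMIs), and the other 7 members had 37 UMIs or fewer each. The sums include 56 adipocyte nuclei, of which 54 had a barcode shared with another library. The interval counts these as separate nuclei. In 48 fibroblast nuclei Ank3 reached 395 CPM on 22 UMIs. In 46 endothelial nuclei Nbea reached 779 CPM (58 UMIs, 591 to 1007), Frmd5 456 CPM (34 UMIs, 316 to 638) and Lingo2 175 CPM (13 UMIs, 92.9 to 298). Of the 34 Frmd5 UMIs, 29 came from KO replicate 1. In 320 T and NK nuclei Frmd5 stood at 172 CPM (63 UMIs, 132 to 219), which was above its mean of 141 CPM in tumor nuclei, and per library it ran from 54.9 to 401 CPM. Cntnap4 had 0 UMIs in T and NK, endothelial and fibroblast nuclei, where the exact Poisson upper bounds are 10.0, 49.5 and 66.3 CPM.

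Among genes with 10 CPM or more in tumor nuclei, the tumor against macrophage contrast was more frequent in long ones. Among genes of 200 kb or more with 10 CPM in tumor nuclei, 22.9% of 571 were at least 5-fold above macrophage nuclei in all libraries, against 2.15% of the 8875 shorter ones. Their median fold was 1.85, against 1.08 for shorter genes. The long genes include 9 members and the tumor markers Mecom and Slit2, which help to define the classes. Genes low in tumor nuclei were left out, and the reverse contrast was not counted by length. The members, picked for high tumor levels, lay between 9.93- and 23.0-fold.

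**Figure D2:**
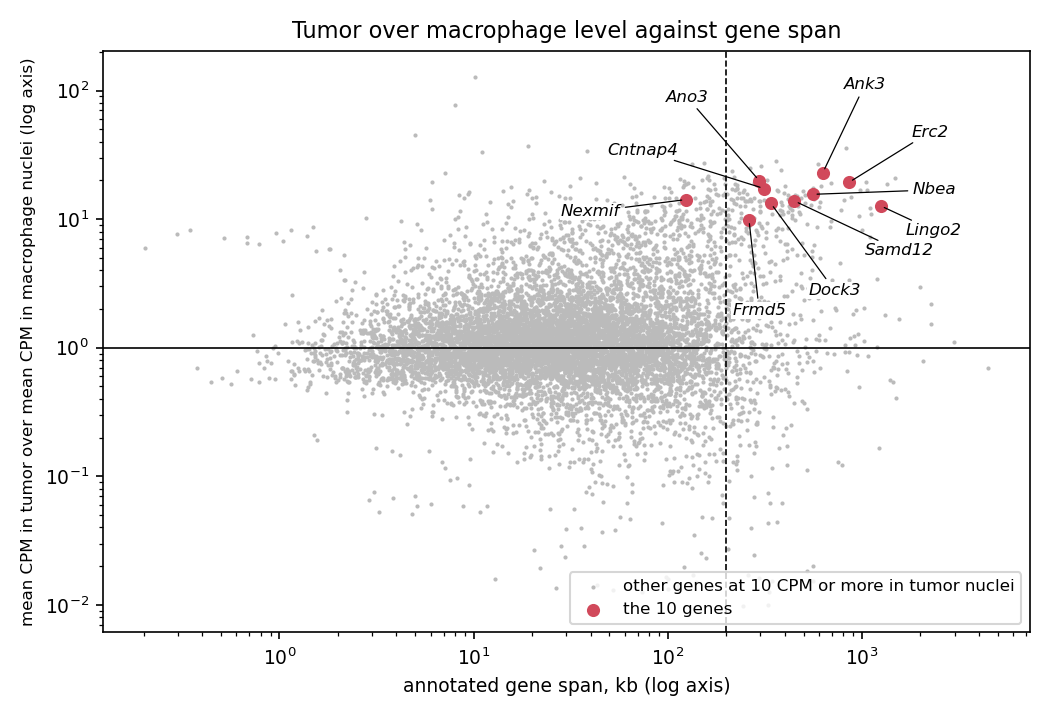
Mean CPM in tumor nuclei divided by mean CPM in macrophage nuclei against the annotated span of each gene, both on log axes, for genes with 10 CPM or more in tumor nuclei. The 10 genes (red) lie between 9.93- and 23.0-fold, and the dashed line marks 200 kb, which Nexmif alone of the 10 does not reach.

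Genes that define neurons were mostly at or near 0 in tumor nuclei. Of 17 genes that define neurons, 2 had 10 CPM or more in tumor nuclei, namely Map2, a microtubule protein of dendrites (149 CPM), and Syn1, a synaptic vesicle protein (20.1 CPM). Tubb3, Nefl and Th had 0 UMIs in all tumor nuclei, and Rbfox3 and Stmn2 had 2 each. The summed level of the 17 genes lay between 165 and 217 CPM per library, a sum that is not corrected for length. Markers of Schwann cells and glia were also low, 2 of 12 at 10 CPM or more (Pmp22 at 39.5 and Prx at 25.8 CPM), with 1 UMI of Sox10 and 0 of Olig2.

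Relatives of the members were present in part. Of 14 active zone genes, 5 had 10 CPM or more in tumor nuclei. Erc1, the closest relative of Erc2, reached 257 CPM and was 3.78-fold above macrophage nuclei, and the vesicle-release gene Rims2 reached 121 CPM and 14.6-fold. Cask, the highest of this list, reached 415 CPM and 2.18-fold. Ppfia1 was lower in tumor (70.7 CPM) than in macrophage nuclei (84.8 CPM). Of 12 genes of the axon initial segment, the partners of ankyrin-G, 6 had 10 CPM or more. The spectrins Sptbn1 and Sptan1 were at 343 and 182 CPM in tumor nuclei, against 97.2 and 94.3 CPM in macrophage nuclei. The kinase Camk2d was lower in tumor (918 CPM) than in macrophage nuclei (1327 CPM). Per 100 kb of span, the ankyrins Ank2 (5.39 CPM) and Ank1 (7.74 CPM) lay far under Ank3 (358 CPM). Lingo1 (4.20 CPM), related to Lingo2, and Cntnap2 (6.45 CPM), related to Cntnap4, lay under 10 CPM. Dock1, related to Dock3, was at 672 CPM in tumor and 286 CPM in macrophage nuclei. Dock4, its highest relative in tumor nuclei, was lower there (747 CPM) than in macrophage nuclei (1559 CPM). So was Ano6, related to Ano3 (280 and 325 CPM). Of 53 further long synaptic genes, 16 had 10 CPM or more in tumor nuclei, and 4 of these were at least 5-fold above macrophage nuclei in all libraries. Cacna2d1, a calcium channel subunit, was at 727 CPM (13.3-fold) and the scaffold Magi2 at 478 CPM (20.9-fold). Per 100 kb of span these were 165 and 32.4 CPM. Of the RE1-silencing factors, 9 of 10 had 10 CPM or more. Rest itself stood at 88.6 CPM in tumor and 49.6 CPM in macrophage nuclei, and its corepressor Rcor1 at 270 and 226 CPM.

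How far the 10 genes vary with division was asked within the tumor nuclei. Each nucleus was thinned to 1000 UMIs and its UMIs of 50 S phase and G2/M markers were counted. Of 7159 nuclei, 5321 (74.3%) held 3 or more and were called cycling, and 384 held 0 and were called resting, 32 to 85 per library. Before thinning, resting nuclei were shallower, with a median of 4340.5 UMIs against 6670. A nucleus with 0 marker UMIs at this depth may still divide.

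Shares of nuclei with a UMI were first set side by side over the levels of cycling markers. Ank3 had a UMI in 76.8% ± 6.08 of nuclei with 0 marker UMIs and in 80.7% ± 6.03 of those with 6 or more (SD over 6 libraries), and Nbea in 62.4% ± 8.67 and 69.3% ± 8.53. Frmd5 went the other way, from 16.6% ± 9.84 at 0 over 12.9% at 1 to 2 and 7.39% at 3 to 5 to 6.38% ± 3.20 at 6 or more. Dock3 was found in 11.2% ± 5.97 at 0 and in 19.1% ± 4.25 at 6 or more, and Ano3 in 25.3% ± 3.65 and 37.2% ± 6.74. Within libraries, the share was higher in cycling than in resting nuclei in 6 of 6 libraries for Ano3 and in 5 of 6 for Ank3, Nbea, Dock3 and Nexmif. The difference ran from -0.78 to 9.30 percentage points in Ank3 and from -2.76 to 14.3 in Nbea. Frmd5 was lower in cycling nuclei in 6 of 6 libraries, by differences from -17.35 to -0.69 points. Lingo2, Erc2, Samd12 and Cntnap4 went up in some libraries and down in others. By level rather than share, Ank3 was higher in the cycling nuclei of only 3 of 6 libraries. How many of all genes move in this way by share was not counted.

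**Figure D3:**
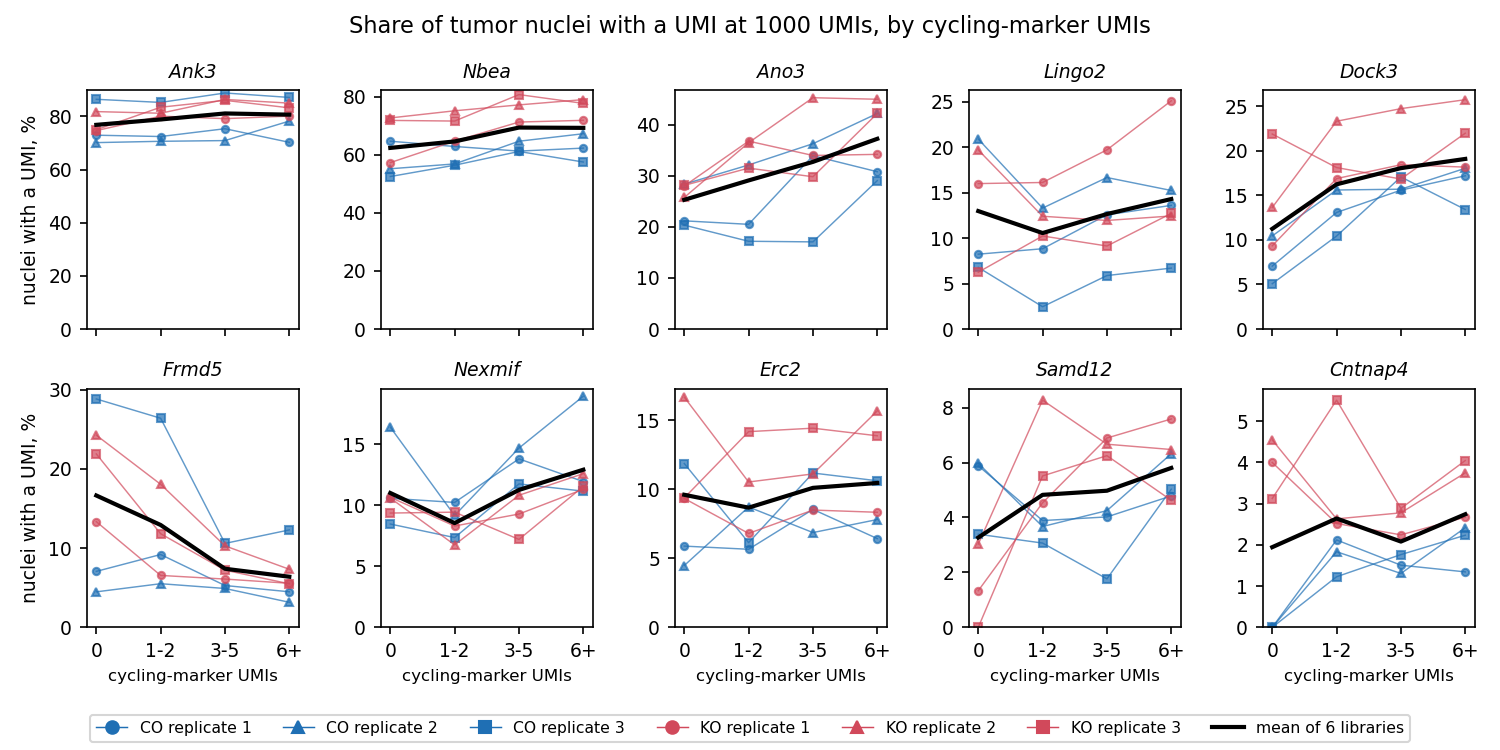
Share of tumor nuclei with a UMI of each gene after thinning to 1000 UMIs (%), by the number of cycling-marker UMIs in the nucleus, for each library (thin lines) and as the mean of 6 libraries (black). The mean falls from 16.6% to 6.38% in Frmd5 and rises from 11.2% to 19.1% in Dock3.

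In the test of cycling against resting nuclei of the same library, 5.16% of 6610 genes passed in either direction (adjusted p at most 0.05 and a log2 fold change of at least 0.58 in size, edgeR quasi-likelihood test with Benjamini-Hochberg adjustment over all genes). Higher in cycling nuclei were 4.49% and lower 0.666%. The genes tested include the cycling markers that define the states, such as Pola1 and Top2a. Their calls follow from that definition, so the shares of genes called or higher are raised by them, here and below. Of the 10 members, 9 passed the filter on low counts, and 2 passed the test, Frmd5 as lower and Dock3 as higher. Cntnap4 was filtered out, with 7 UMIs in resting nuclei, all in libraries labelled KO, and 139 in cycling nuclei. The median log2 fold change of the 9 members was 0.18, against 0.00 over all genes tested.

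Frmd5, the FERM-domain gene, was lower in the cycling nuclei of every library. Scaled by TMM, resting nuclei gave 222, 113 and 820 CPM in CO and 301, 708 and 375 CPM in KO. In cycling nuclei the corresponding values were 71.0, 62.5 and 220 CPM in CO and 84.7, 200.3 and 95.7 CPM in KO. CO replicate 3 and KO replicate 2 were highest in both states, and the ranges of the states overlapped across libraries, with the cycling value lower within each. The log2 fold change was -1.76 (SE 0.17, adjusted p = 2.66e-23 in edgeR), on 147 resting and 527 cycling UMIs. It ranked second in size among the 44 genes that fell. Col3a1, a fibroblast marker that tumor nuclei also held, was lower in the cycling nuclei of all 6 libraries too (log2 fold change -0.58, SE 0.13, adjusted p = 0.000233), from 330 to 875 CPM in resting and 233 to 735 CPM in cycling nuclei. Its part in the Frmd5 result was not tested. A lower level in cycling nuclei of all 6 libraries was seen in 1.91% of genes.

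Dock3, the Rac activator, was higher in the cycling nuclei of every library. Resting nuclei gave 78.2, 113 and 54.7 CPM in CO and 115, 145 and 230 CPM in KO, on 41 UMIs in all. Cycling nuclei gave 229, 219 and 201 CPM in CO and 247, 341 and 291 CPM in KO. KO replicate 3 had the highest resting value, which overlapped the cycling range of the other libraries. The log2 fold change was 1.14 (SE 0.22, adjusted p = 8.24e-06 in edgeR). A higher level in cycling nuclei of all 6 libraries was seen in 8.09% of genes. With the resting class widened to at most 2 marker UMIs and cycling nuclei limited to 6 or more, a choice made after seeing the data, the fold change was 0.42 (adjusted p = 0.00156) and no longer reached 0.58, where 7.12% of 7996 genes were called.

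Ano3 was also higher in cycling nuclei of all 6 libraries, 351 to 813 CPM against 292 to 445 CPM. Its log2 fold change of 0.56 (SE 0.14, adjusted p = 0.00161 in edgeR) was just short of the fold threshold, and 5.01% of genes were higher at such an adjusted p whatever their fold. It passed both thresholds under 8 of 21 alternative settings. Nbea gave a log2 fold change of 0.26 (SE 0.09, adjusted p = 0.078), higher in 5 of 6 libraries. Samd12 came to 0.72 (SE 0.36, adjusted p = 0.314), on 16 resting UMIs. Ank3 (0.01, SE 0.09), Lingo2 (0.03, SE 0.16), Nexmif (0.16, SE 0.22) and Erc2 (0.18, SE 0.25) did not pass. Lingo2 (2.66, adjusted p = 8.42e-05) and Nexmif (1.85, adjusted p = 0.0331) passed in 1 of 21 alternatives, at 2000 UMIs a nucleus, where the median of all genes was 0.52. The resting class there held only 1 to 13 nuclei per library.

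**Figure D4:**
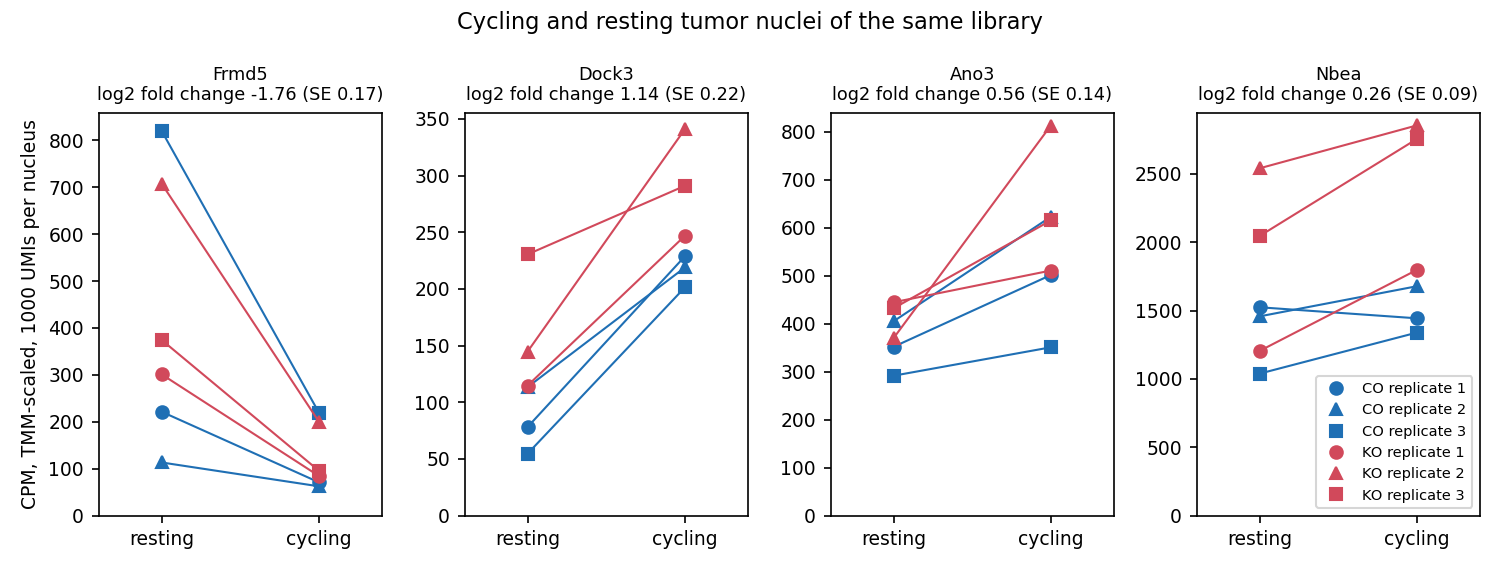
Level of Frmd5, Dock3, Ano3 and Nbea in resting and cycling tumor nuclei, in TMM-scaled CPM from nuclei thinned to 1000 UMIs, with a line for each library. All 6 lines fall in Frmd5 and rise in Dock3 and Ano3, and 5 of 6 rise in Nbea.

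The other lists were counted against the 5.16% of all genes called, a share that includes the markers of the states. Of the 7 long synaptic genes that passed the filter, 1 was called, Cacna2d1, which was lower in cycling nuclei (log2 fold change -0.67, SE 0.10, adjusted p = 9.29e-09 in edgeR). Map2 was the only neuron-defining gene tested and was higher (1.09, SE 0.25, adjusted p = 0.000462). None of the 4 active zone, 5 axon initial segment and 7 RE1-silencing genes tested was called.

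The study compared tumors of mice given tamoxifen with those of mice given vehicle, and 9 of the 10 genes had a higher mean in tumor nuclei under the KO label. Of all 12818 genes tested, 6176 had a log2 fold change above 0, and that of Frmd5 was 0.01. None of the 10 genes passed the test, and 0.0% of 12818 genes did. At an unadjusted p under 0.05 there were 839 genes (6.55%), and DESeq2 called 19. The median log2 fold change of the 10 members was 0.54, against -0.02 over all genes tested.

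Nbea, scaled by TMM, measured 1339, 1504 and 1159 CPM in CO and 1673, 2984 and 2589 CPM in KO, without overlap. Its log2 fold change was 0.86 (SE 0.30, adjusted p = 0.577 in edgeR). Cntnap4 measured 17.6, 17.4 and 22.3 CPM in CO and 27.0, 44.3 and 36.2 CPM in KO (0.92, SE 0.23, adjusted p = 0.577). Lingo2 measured 214, 282 and 110 CPM in CO and 432, 354 and 304 CPM in KO (0.85, SE 0.34, adjusted p = 0.577). In Dock3 the CO values of 187, 199 and 180 CPM also lay under the KO values of 212, 342 and 294 CPM (0.58, SE 0.21, adjusted p = 0.577). These 4 members were the ones whose KO libraries all lay above all CO libraries, an arrangement seen in 6.80% of all genes.

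In the other 6 members the groups overlapped. Erc2 gave a log2 fold change of 0.60 (SE 0.28), Ano3 0.50 (SE 0.27), Ank3 0.34 (SE 0.34), Samd12 0.27 (SE 0.22), Frmd5 0.01 (SE 0.62) and Nexmif -0.11 (SE 0.21), with adjusted p-values from 0.577 to 0.994 in edgeR.

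The result rests on KO replicate 1. Without it, 20.8% of 12896 genes were called in either direction and 6.58% as higher, and Nbea (1.06, adjusted p = 0.0265), Cntnap4 (1.09, adjusted p = 0.0264), Erc2 (0.87, adjusted p = 0.0264) and Dock3 (0.76, adjusted p = 0.0265) were among the latter. Quality of the libraries moved across the groups. The median mitochondrial share of tumor nuclei was 9.71%, 8.64% and 9.13% in CO replicates 1 and 2 and KO replicate 1, and 4.56%, 4.98% and 3.18% in CO replicate 3 and KO replicates 2 and 3. Ank3 followed the same division, with 1591, 1623 and 1872 CPM in the former and 2795, 3123 and 2584 CPM in the latter. So did Frmd5, with 76.3, 68.4 and 78.9 CPM and 281, 233 and 116 CPM. Erc2 did too, with 78.9, 88.3 and 85.0 CPM and 108, 167 and 166 CPM. The other members overlapped across this division, and the share of all genes that follow it was not counted. With the mitochondrial share as a covariate, chosen after seeing the data, 0 genes were called, and the log2 fold change was 0.75 for Nbea, 1.18 for Lingo2, 0.12 for Ank3 and -0.27 for Frmd5. The part of library quality in these levels was not tested beyond this covariate.

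**Figure D5:**
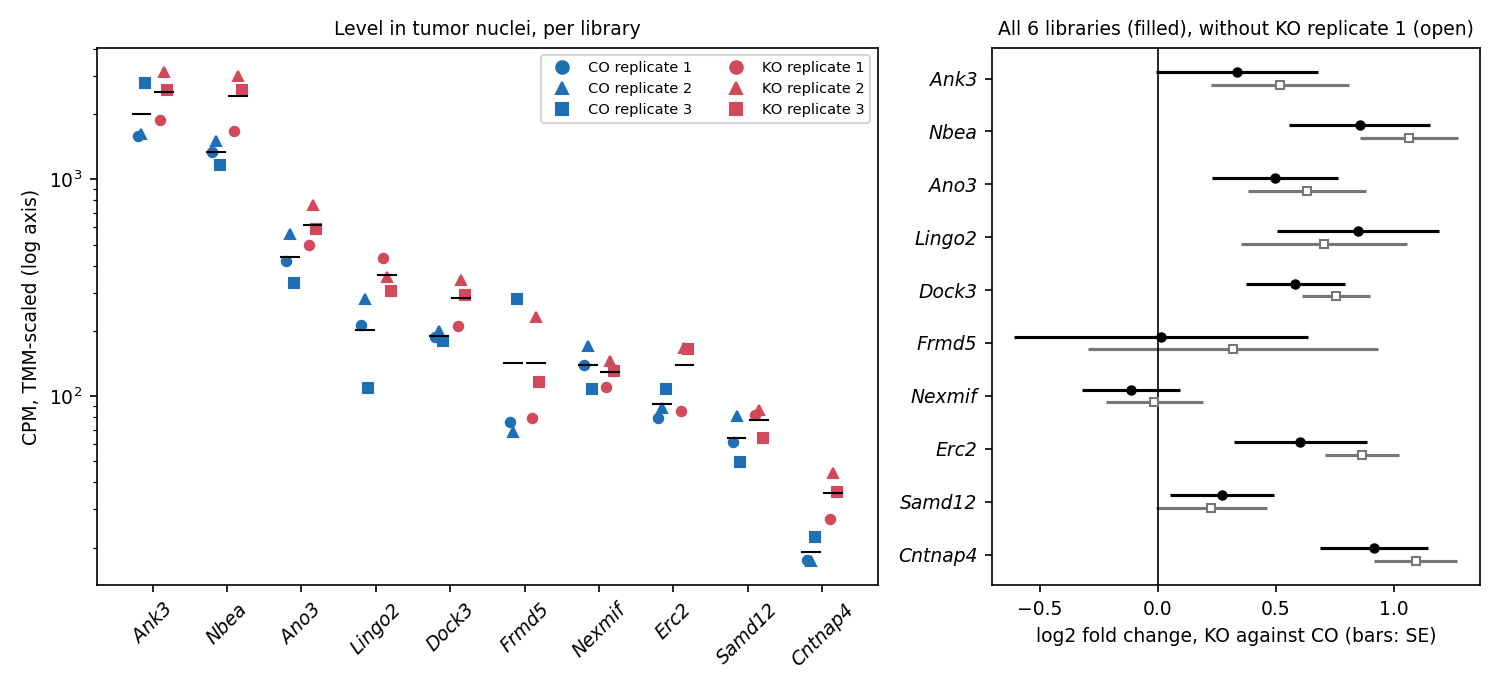
Left, level of each gene in tumor nuclei of each library, in TMM-scaled CPM on a log axis, with group means as bars. Right, log2 fold change of KO against CO with its SE, from all 6 libraries (filled) and without KO replicate 1 (open). Of the filled points, 9 of 10 lie above 0, with Frmd5 at 0.01, as do 6176 of all 12818 genes tested.

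Whether the change with division differed between the groups was tested as an interaction, in which 0.0% of 6610 genes passed (298, or 4.51%, at an unadjusted p under 0.05, and 0 in DESeq2). For Frmd5 the difference in log2 fold change, KO minus CO, was -0.21 (SE 0.31), and for Dock3 -0.44 (SE 0.49), both with an adjusted p of 1.0 in edgeR. With 3 libraries a group, these errors do not show that the effects are alike. For Frmd5 the interaction passed in 2 alternatives, at -2.65 with tumor nuclei chosen without Mecom and at -1.39 in unthinned counts.

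Members did not all go together. Over 24 sums (resting tumor, cycling tumor, macrophage and other host nuclei of each library), Pearson's r of log2(CPM + 1) between a gene and the mean of the other 9 lay between 0.869 and 0.954 for 9 members and at 0.476 for Frmd5. The sums share libraries, and most of the spread is that between tumor and host, so these values are a description. The genes most like the mean of the members by this measure were Rorb, Sgms2, Pcdh7, Osbpl6, Gria3, Oxr1, Sema3a and Six4, with r from 0.979 down to 0.963. All of these but Six4 (13.8 kb) span more than 170 kb.

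Within tumor nuclei at 1000 UMIs, pairs of members were found together about as often as their shares in each library predict. Over 44 pairs with at least 10 nuclei expected, the ratio of observed to expected nuclei had a median of 1.05 and ran from 0.562 to 1.46. The lowest was that of Frmd5 and Samd12, with 17 nuclei against 30.2 expected, followed by Frmd5 and Lingo2 (49 against 73.9) and Frmd5 and Ano3 (131 against 188). Frmd5 was found more often than predicted with the collagen gene Col3a1, in 245 nuclei against 159 (ratio 1.54), and with the receptor gene Pdgfra, in 306 against 249 (ratio 1.23).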

How the data were processed

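Single-nucleus libraries (10x Genomics 3′ chemistry) (3 CO and 3 KO) were deposited by the authors as raw UMI counts per gene and nucleus. Their notes name Cell Ranger 3.0.2, Seurat 5.2.1 and GRCm38, and the file headers give Cell Ranger 3.1.0. The study describes a correction for ambient RNA, but the deposited counts are whole numbers. Whether introns were counted, which matters for long genes, is not given in the sources used here. Some samples had extra washes, and which ones is not stated.

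Of 18865 barcodes, 18014 had 100 to 7500 genes and under 20% mitochondrial UMIs, and 500 with the highest Scrublet scores (scanpy 1.11.5) were removed as doublets, since its automatic threshold marked 9. Groups follow the sample titles. Counts were summed over tumor nuclei per library, or per library and cycling state at 1000 UMIs a nucleus, and tested with edgeR 4.0.16 (R 4.3.3, quasi-likelihood test, TMM, filterByExpr), without a block between groups and with the library as a block between states. Adjusted p-values are Benjamini-Hochberg over all genes tested, and a call needs an adjusted p of at most 0.05 and a log2 fold change of at least 0.58 in size. DESeq2 1.42.0, other filters, classes, depths and normalization, and leaving out each library were alternatives. On simulated data, the tests recovered 96.0% of 4-fold and 27.3% of 2-fold changes for KO against CO (12695 genes), 96.7% and 61.3% for cycling against resting (6033 genes), and 44.7% and 10.5% for the interaction (6076 genes). The simulation gave all libraries the same mean profile and all genes the same dispersion. It left out the differences in quality between libraries, so these rates may not hold for the real data.

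The members and the gene lists were chosen with earlier results of these data known. Genes named were the 10 members and the 8 most like them. From each list, some of the up to 4 highest in tumor nuclei and any gene called were named. List genes and lung markers at or near 0, Pdgfra and Col3a1 were named after their values were seen. Intervals cover counting error only.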

Additional observations from a re-analysis of the deposited data

Results flagged for a closer look

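The difference between cycling and resting tumor nuclei in the share with a Dock3 UMI stood apart in KO replicate 3. It was -1.84 percentage points there, and between 6.73 and 11.7 percentage points in the other 5 libraries. Chance sets a library apart by this criterion in about 1 in 20 groups. The library had the fewest resting nuclei, 32, with 8 Dock3 UMIs.

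Nuclei with both tumor and host markers, which enter no comparison, had a mean Frmd5 level of 314 ± 172 CPM (SD, n = 6 libraries). The values were 215, 246 and 479 CPM in CO and 179, 581 and 183 CPM in KO, each above the tumor nuclei of its own library. The host markers that set these nuclei apart include Pdgfra and Col3a1, which tumor nuclei also held.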

How the results depend on the processing

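The median fold of the members over macrophage nuclei lay between 13.3 and 19.6 under 13 alternatives. Its SD over libraries, 14.7, is about as large as the fold, so this range says little of its stability. For KO against CO, DESeq2 called 19 genes, and leaving out 1 library gave 0 to 2678, the highest without KO replicate 1. Frmd5 reversed to -0.31 with at least 500 genes and under 5% mitochondrial UMIs, -0.0616 without 5 host markers and -0.27 with the mitochondrial covariate, and lay between -0.54 and 0.97 on leaving out a library. Nexmif lay between -0.27 and 0.0586. A replicate block called 0 genes (1951 at an unadjusted p under 0.05). Same-numbered deviations from the group means correlated at 0.54, -0.25 and 0.41, and 1 of 3 CO libraries correlated best with its own number. With 3 libraries a group, these values cannot decide whether the replicate numbers pair the samples.

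Genes called between cycling and resting nuclei numbered 96 under that strict filter, 144 with stricter classes, 528 without 5 host markers, 806 unthinned, 153 at 2000 to 6000 UMIs, 569 with the wider resting class, 193 in DESeq2, 132 without the block and 276 to 329 without a library. Frmd5 was called in 20 of 21 alternatives, not at 2000 UMIs (-0.89, where the median of all genes was 0.52), and Dock3 in 20 of 21. Lingo2 (2.66) and Nexmif (1.85) gained a call at 2000 UMIs. At that depth the resting class held between 1 nucleus (KO replicate 3) and 13 nuclei (KO replicate 2) per library. Small values changed sign. Ank3 reached -0.00996 with stricter classes, -0.0173 without Mecom, -0.00094 without shared barcodes, -0.0636 at 2000 to 6000 UMIs, -0.0479 by G2/M markers, -0.0199 with the wider class, -0.0552 in DESeq2, -0.0427 without the block and -0.0302 to 0.0407 without a library. Lingo2 reached -0.24 under the strict filter, -0.00082 with stricter classes, -0.12 by S markers, -0.0852 in DESeq2, -0.0520 without the block and -0.21 to 0.16 without a library. Erc2 reached -0.30 with stricter classes, -0.0119 without Mecom and -0.0417 at 2000 to 6000 UMIs. Nexmif reached -0.0189 under the strict filter, -0.19 with stricter classes and -0.11 without Mecom.

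The interaction called 1 gene with stricter classes, 1 without Mecom, 13 unthinned and 0 to 1 without a library. For Frmd5 it was -2.65 without Mecom, -1.39 unthinned and reversed to 1.58 under the strict filter, and for Dock3 it reversed to 0.0309 without 5 host markers and 0.0327 unthinned. The cause of these moves was not tested. The 384 resting nuclei limit what depth can show, and Cntnap4 could not be fitted between states. The mitochondrial covariate, the wider class and the sets without shared barcodes or without 5 host markers were chosen after seeing the data.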

Other observations

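Frmd5 went with Col3a1, a collagen gene of fibroblasts that tumor nuclei also held. Among resting tumor nuclei at 1000 UMIs, a Frmd5 UMI was found in 23.5% of the 132 nuclei with a Col3a1 UMI and in 11.1% of the 252 without one. Among cycling nuclei the shares were 10.7% of 1250 and 4.74% of 4071. These shares pool nuclei of 6 libraries that differ in both genes.

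Nuclei with mixed markers differed in Frmd5 by the host list that gave most of their host UMIs. The level was 383 CPM where fibroblast markers led (1685 nuclei), 363 CPM where T and NK markers led (152 nuclei), 261 CPM where endothelial markers led (149 nuclei) and 63.3 CPM where macrophage markers led (2096 nuclei). In the last of these, Ank3 stood at 1059 CPM and Nbea at 998 CPM. The fibroblast list holds Pdgfra and Col3a1, with which Frmd5 was found more often than predicted in tumor nuclei. The Frmd5 level where fibroblast markers led thus depends on the class rule. All these levels pool nuclei of 6 libraries.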
